A study of Mus musculus with 6 samples.

Results

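Vwf, Itga2b, Pf4, Gp1bb, Gp9 and Selp, genes of megakaryocytes and of the HSCs biased toward platelet production, were examined in HSCs of mice given ferulic acid. These 6 genes were taken by gene name from the 27198 genes of the deposited expression table, and all 6 were among the 16520 genes with enough counts to test. RNA was sequenced from 3 libraries of control mice (Ctrl) and 3 libraries of mice with long-term ferulic acid supplementation (l-FA). All mice were wild-type male C57BL/6 animals aged 8 to 10 weeks, and l-FA mice received ferulic acid intraperitoneally at 50 mg/kg once daily for 30 days, while Ctrl mice received solvent. HSCs were sorted from bone marrow as lineage-negative, Sca-1+, c-Kit+, Flk2- and CD34- cells, and CD41, the protein of Itga2b, was neither in the lineage cocktail nor in the gate. The sources used here do not state how many mice contributed to a library, so the tests below measure the spread between libraries, which may be technical. The libraries held between 19287735 and 20380610 counts.

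Megakaryocytes are the large bone marrow cells that shed platelets. They store von Willebrand factor, platelet factor 4 and P-selectin in alpha granules, and carry the integrin αIIbβ3, which binds fibrinogen, and the glycoprotein Ib-IX-V complex, which binds von Willebrand factor. A subset of HSCs already carries transcripts of this program, Vwf and Itga2b among them, and preferentially gives rise to platelets.

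The labelled cell type was checked first. The c-Kit transcript Kit was abundant, at 1067 ± 18.8 CPM (counts scaled to library size, after TMM normalization) in Ctrl and 1157 ± 9.92 CPM in l-FA (SD, n = 3 libraries). Transcripts of CD34 and Flk2, which the gate excluded beside the lineage markers, were abundant as well. Cd34 had 1343 ± 18.4 CPM in Ctrl and 1579 ± 38.2 CPM in l-FA, and Flt3, which encodes Flk2, had 759 ± 3.43 and 1183 ± 19.8 CPM. Itgam, a gene of the lineage marker Mac-1, had 44.8 ± 3.61 CPM in Ctrl and 63.6 ± 5.43 CPM in l-FA. It was called higher (log2 fold change 0.50, edgeR adjusted p = 0.00266). Cd3e and Ly6g, genes of other lineage markers, had too few counts to test. Slamf1, which encodes the HSC marker CD150, had only 2.14 ± 0.566 and 7.97 ± 0.493 CPM, the lowest Ctrl level of 11 listed HSC genes. Others of this list were well detected, such as Ly6a, which encodes Sca-1 (45.03 ± 10.9 and 76.8 ± 1.74 CPM). Hlf had 117 ± 2.71 and 94.65 ± 5.15 CPM, while Hoxb5 was low as well (3.535 ± 0.271 and 3.65 ± 0.176 CPM). The RNA levels of Cd34 and Flt3 go against the labelled CD34- Flk2- phenotype, although surface protein was not measured here. A list of 12 neutrophil and monocyte genes, among them Mpo and Elane, summed to between 23320 and 24150 CPM in the Ctrl libraries and to between 5740 and 6064 CPM in the l-FA libraries, and all 12 were lower. The part of this difference in the results below was not tested. Whether more cells of a type or more RNA per cell underlies a higher level cannot be told apart in such bulk libraries.

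The 6 genes spanned a wide range of levels per length, read from the deposited FPKM values, which are scaled to gene length and library size. In Ctrl the order was Itga2b (20.7 ± 0.353 FPKM), Selp (6.29 ± 0.369), Gp9 (6.19 ± 0.933), Pf4 (4.90 ± 1.23), Vwf (1.17 ± 0.0458) and Gp1bb (0.766 ± 0.337). The FPKM ranges of Selp and Gp9 overlapped in Ctrl, as did those of Gp9 and Pf4, while the other neighbours in this order were apart. In l-FA the order was Itga2b (30.3 ± 0.396 FPKM), Gp9 (17.4 ± 1.61), Selp (8.94 ± 0.138), Pf4 (6.52 ± 0.583), Vwf (1.68 ± 0.0634) and Gp1bb (0.916 ± 0.140), with no overlap between neighbours. By FPKM among the genes tested, Itga2b lay between the 83.4th and 89.0th percentile of a library, and Gp1bb between the 14.9th and 27.2nd.

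**Figure D1:**
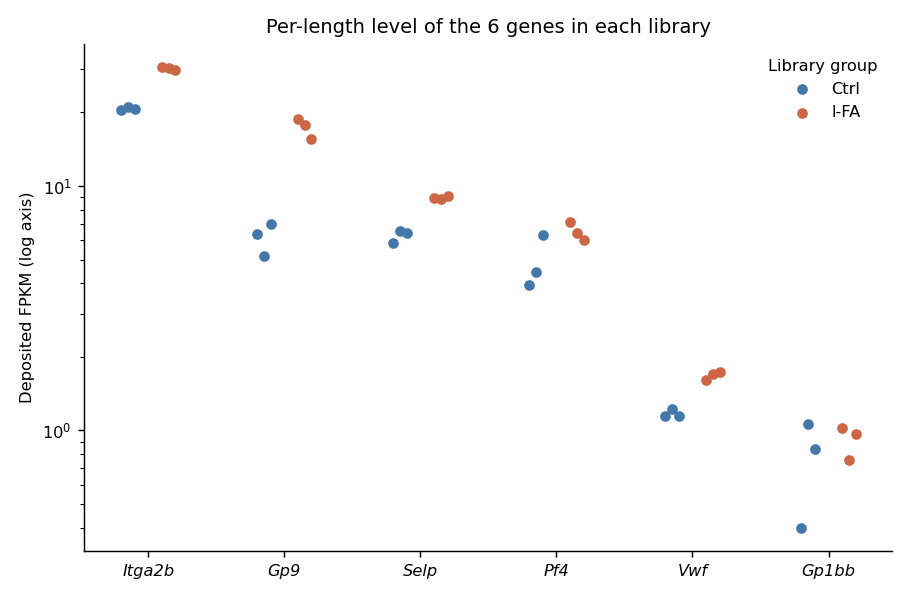
Deposited FPKM (log axis) of each of the 6 genes, with 1 point per library, 3 Ctrl and 3 l-FA libraries. Itga2b was highest in all 6 libraries, Gp9 moved from beside Selp in Ctrl to above it in l-FA, and Gp1bb was lowest.

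In HSCs of l-FA-treated mice, Itga2b, Vwf, Selp and Gp9 were higher than in Ctrl, and Pf4 and Gp1bb did not pass the test. Gp9 rose 2.66-fold, and the other three rose by similar amounts, between 1.35-fold for Selp and 1.39-fold for Itga2b. At an adjusted p under 0.05 (edgeR's quasi-likelihood test over all genes) 4 of the 6 genes were higher and none lower, where 50.5% of all genes tested were called, 25.5% of all genes as higher and 25.0% as lower. Past a 2-fold change as well, only Gp9 of the 6 was called, and by that rule 6.68% of all genes were called higher and 5.1% lower. For Itga2b, Vwf, Selp and Gp9 the lowest l-FA library exceeded the highest Ctrl library, a separation toward higher values that 30.4% of all genes tested showed (60.3% in either direction). On the log2 scale the median change over the 6 genes was 0.44, against 0.0035 for all genes tested. Summed over the 6 genes, the level went from 252 ± 7.29 CPM in Ctrl to 352 ± 2.48 CPM in l-FA. Itga2b made up most of this sum, and without it the sum went from 78.5 ± 4.72 to 112 ± 0.361 CPM.

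**Figure D2:**
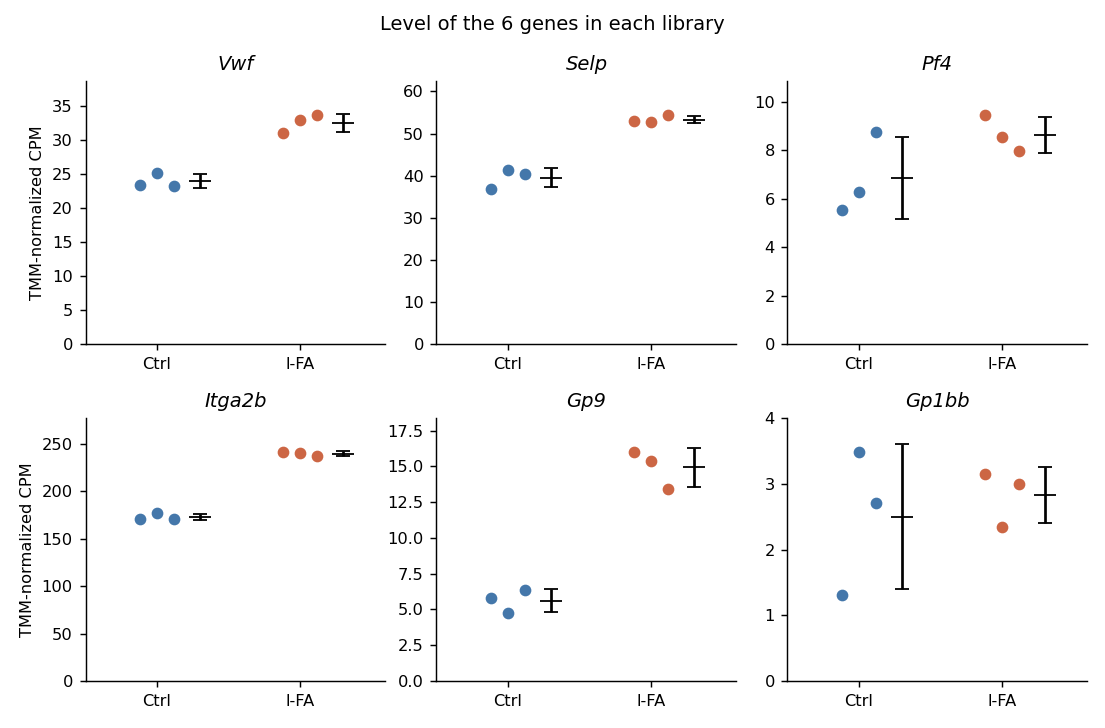
TMM-normalized CPM of the 6 genes in each library (points, n = 3 per group), with the mean and SD beside them. The 3 l-FA libraries lay above the 3 Ctrl libraries for Vwf, Selp, Itga2b and Gp9, and the groups overlapped for Pf4 and Gp1bb.

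Among the granule proteins, Vwf (ENSMUSG00000001930; chromosome 6, 125523737 to 125663642, GRCm39) encodes von Willebrand factor, the multimeric ligand that tethers platelets to exposed collagen. Its counts were 450, 469 and 463 in Ctrl and 652, 660 and 672 in l-FA. All l-FA libraries were high, and the spread within each group was small. The mean level went from 23.9 ± 1.04 to 32.5 ± 1.34 CPM (SD, n = 3). The log2 fold change was 0.44 with 0.0598 as its standard error (SE), and the edgeR adjusted p was 0.00115.

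Selp (ENSMUSG00000026580; chromosome 1, 163942833 to 163977595) encodes P-selectin, the granule membrane protein that activated platelets and endothelial cells expose to bind leukocytes. Counts were 709, 773 and 803 in Ctrl and 1111, 1057 and 1085 in l-FA, so the groups were well apart. Its level went from 39.6 ± 2.33 to 53.3 ± 0.884 CPM, and the log2 fold change was 0.43 (SE 0.0540, edgeR adjusted p = 0.000847). The log2 ratio of Vwf to Selp counts within a library was -0.72 ± 0.0693 in Ctrl and -0.71 ± 0.0486 in l-FA. Thus, both granule genes rose while their ratio differed by only 0.01 between the groups (two-sided exact permutation p = 0.8, n = 3 per group).

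Pf4 (ENSMUSG00000029373; chromosome 5, 90920294 to 90921242) encodes platelet factor 4, a heparin-binding chemokine released from alpha granules. Its counts were 106, 117 and 174 in Ctrl and 198, 171 and 159 in l-FA. Ctrl library 3 reached the level of the l-FA libraries, so the groups overlapped. The change from 6.84 ± 1.68 to 8.64 ± 0.740 CPM, a log2 fold change of 0.34 (95% interval -0.10 to 0.77), did not pass (edgeR adjusted p = 0.169). Without Ctrl library 3 the log2 fold change was 0.54 and passed (edgeR adjusted p = 0.0184). Without Ctrl library 1 it was 0.20 and did not pass (edgeR adjusted p = 0.385), so the estimate depended on single Ctrl libraries. Across the Ctrl libraries Pf4 had a chi-square of 16.1, where counting error alone exceeds 5.99 in 5% of genes and the median gene tested had 3.04. Ppbp, which encodes another alpha-granule chemokine beside Pf4, had 40 to 55 counts in Ctrl and 45 to 65 in l-FA, and a log2 fold change of 0.08 (SE 0.197, edgeR adjusted p = 0.759).

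Among the receptors, Itga2b (ENSMUSG00000034664; chromosome 11, 102344123 to 102360948) encodes the CD41 chain of the fibrinogen receptor. It had 3277, 3306 and 3414 counts in Ctrl and 5074, 4835 and 4734 in l-FA. With the most counts of the 6 genes it also had the smallest error. The level went from 173 ± 3.55 to 239.9 ± 2.51 CPM, a log2 fold change of 0.47 (SE 0.0259, edgeR adjusted p = 3.9e-05). Itgb3, the β3 chain with which CD41 pairs, rose from 27.1 ± 0.749 to 32.02 ± 1.02 CPM (log2 fold change 0.24, SE 0.0522, edgeR adjusted p = 0.00867). The log2 ratio of Itga2b to Itgb3 counts was 2.68 ± 0.0695 in Ctrl and 2.91 ± 0.0590 in l-FA, without overlap between the groups. The two-sided exact permutation p of this ratio was 0.1, the smallest that 3 libraries against 3 allow, and 0.25 after Benjamini-Hochberg adjustment over the 5 ratios tested.

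Gp9 (ENSMUSG00000030054; chromosome 6, 87755054 to 87756750) encodes glycoprotein IX, a small leucine-rich subunit of the von Willebrand factor receptor. Its counts were 111, 88 and 126 in Ctrl and 336, 308 and 268 in l-FA. The lowest l-FA library held more than 2 times the counts of the highest Ctrl library. The level went from 5.61 ± 0.818 to 14.9 ± 1.34 CPM, a log2 fold change of 1.41 (SE 0.132, 95% interval 1.09 to 1.73, edgeR adjusted p = 0.000269).

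Gp1bb (ENSMUSG00000050761; chromosome 16, 18439067 to 18441153) encodes the disulfide-linked glycoprotein Ibβ of the same receptor. It had 25, 65 and 54 counts in Ctrl and 66, 47 and 60 in l-FA. Ctrl library 1 was far below the other libraries, and the groups overlapped. Its level was 2.499 ± 1.11 CPM in Ctrl and 2.83 ± 0.427 CPM in l-FA, with a log2 fold change of 0.18 (SE 0.339, 95% interval -0.63 to 0.99, edgeR adjusted p = 0.69). Without Ctrl library 1 the log2 fold change was -0.13. The interval covers the changes of Vwf, Selp and Itga2b but not that of Gp9.

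The Gp1bb locus overlaps those of Septin5, a septin cytoskeleton gene, and Gm49601, and reads in the overlap may be assigned to any of them. For Septin5 the counts were 27, 7 and 1 in Ctrl and 2, 26 and 0 in l-FA. It was highest in Ctrl library 1 and l-FA library 2, the libraries of each group in which Gp1bb was lowest. Summed over these 3 genes, counts were 52, 72 and 57 in Ctrl and 68, 73 and 60 in l-FA, and the chi-square across Ctrl libraries went from 18.6 for Gp1bb alone to 4.71 for the sum. The log2 fold change of the sum was 0.07 (SE 0.174, edgeR adjusted p = 0.769), an alternative chosen after seeing the data. Loci of 2 lncRNA genes overlap Selp and that of a misc_RNA gene overlaps Itga2b, and with these added the log2 fold changes were 0.41 and 0.47. No listed gene overlaps Vwf, Pf4 or Gp9.

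**Figure D3:**
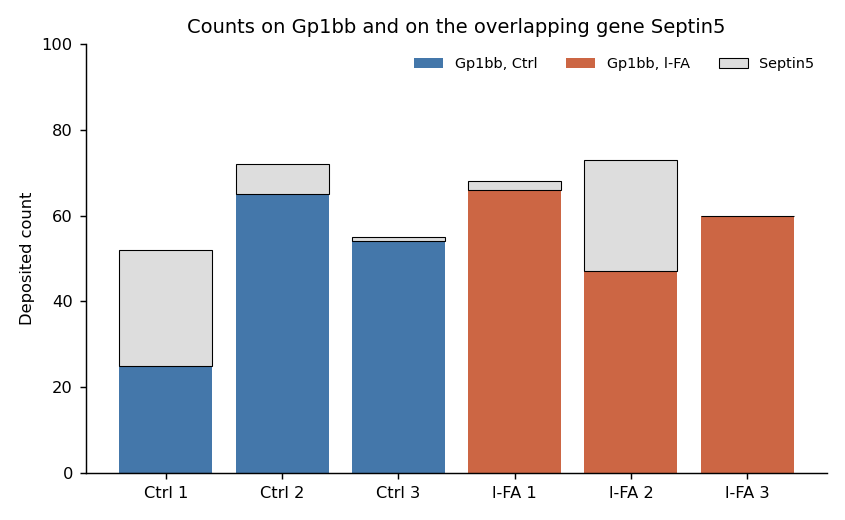
Deposited counts on Gp1bb (coloured) and on the overlapping gene Septin5 (grey, stacked above it) in each of the 6 libraries. Septin5 held 27 counts in Ctrl library 1 and 26 in l-FA library 2, where Gp1bb held 25 and 47.

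The other chains of the von Willebrand factor receptor both rose. Gp1ba, the ligand-binding chain, went from 4.65 ± 0.519 to 7.38 ± 1.02 CPM (log2 fold change 0.67, SE 0.142, edgeR adjusted p = 0.00803). Gp5, the chain cleaved by thrombin, went from 17.5 ± 1.09 to 29.96 ± 2.69 CPM (log2 fold change 0.78, SE 0.0872, edgeR adjusted p = 0.00055). Within libraries, the log2 ratio of Gp1bb to Gp9 counts was -1.27 ± 0.858 in Ctrl and -2.41 ± 0.281 in l-FA. The groups did not overlap, but only narrowly, with -2.151 in Ctrl library 1 and -2.159 in l-FA library 3. The difference of -1.14 had a two-sided exact permutation p of 0.1, the smallest possible, and 0.25 adjusted over the 5 ratios. With the overlapping genes added to Gp1bb the difference was -1.34, and it was -0.72 without Ctrl library 2 and -1.58 without Ctrl library 1. The ratios of Gp1ba to Gp1bb and of Pf4 to Ppbp overlapped between the groups (differences 0.38 and 0.28 on the log2 scale, two-sided exact permutation p = 0.5 for both). With the overlapping genes added to Gp1bb, the Gp1ba to Gp1bb difference was 0.58 and the groups were apart (two-sided exact permutation p = 0.1). Single libraries moved both ratios, since Gp1ba to Gp1bb was 0.79 without Ctrl library 1 and 0.14 without l-FA library 2, and Pf4 to Ppbp was 0.63 without Ctrl library 3 and 0.04 without Ctrl library 1.

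Sequences upstream are shown for description, for Itga2b, Selp and Gp9, which were called higher, and for Pf4 and Gp1bb, which were not. They cover the 250 bases before the RefSeq start of each gene in GRCm38.p6, a build older than that of the coordinates above, with Itga2b at chr11:102469884-102470133 on the minus strand, Selp at chr1:164115014-164115263 on the plus strand, Pf4 at chr5:90772185-90772434 on the plus strand, Gp9 at chr6:87777820-87778069 on the plus strand and Gp1bb at chr16:18622404-18622653 on the minus strand. Vwf had no entry. Capitals mark GGAAG, a word bound by ETS factors such as Fli1 and Erg, on both strands. They also mark the words bound by GATA factors (AGATAA or AGATAG, and likewise TGATAA or TGATAG), on both strands. Other words that ETS factors bind were not marked or counted.
Itga2b: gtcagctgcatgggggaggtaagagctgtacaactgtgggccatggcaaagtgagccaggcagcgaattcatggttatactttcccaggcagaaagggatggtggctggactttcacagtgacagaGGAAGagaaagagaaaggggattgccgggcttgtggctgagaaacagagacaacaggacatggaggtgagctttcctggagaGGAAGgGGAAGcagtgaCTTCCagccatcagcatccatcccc
Selp: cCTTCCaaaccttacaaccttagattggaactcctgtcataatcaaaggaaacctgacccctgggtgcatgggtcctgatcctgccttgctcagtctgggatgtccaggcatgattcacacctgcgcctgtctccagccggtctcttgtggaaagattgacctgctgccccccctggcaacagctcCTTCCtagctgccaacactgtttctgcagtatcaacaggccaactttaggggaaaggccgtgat
Pf4: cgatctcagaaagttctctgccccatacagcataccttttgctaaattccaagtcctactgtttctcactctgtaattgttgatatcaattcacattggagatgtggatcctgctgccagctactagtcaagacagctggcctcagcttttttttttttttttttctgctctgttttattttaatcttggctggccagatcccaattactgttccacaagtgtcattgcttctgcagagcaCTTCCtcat
Gp9: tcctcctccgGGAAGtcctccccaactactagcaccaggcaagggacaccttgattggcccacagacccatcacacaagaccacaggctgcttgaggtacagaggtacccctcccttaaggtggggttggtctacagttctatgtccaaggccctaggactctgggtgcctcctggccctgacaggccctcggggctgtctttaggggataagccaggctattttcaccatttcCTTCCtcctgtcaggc
Gp1bb: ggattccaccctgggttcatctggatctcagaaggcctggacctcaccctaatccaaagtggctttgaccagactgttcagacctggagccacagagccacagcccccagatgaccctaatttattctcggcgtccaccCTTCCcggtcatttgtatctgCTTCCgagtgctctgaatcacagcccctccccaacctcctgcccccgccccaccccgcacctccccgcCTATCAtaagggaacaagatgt
The ETS word was present upstream of all 5 genes, with 4 matches for Itga2b, 2 each for Selp, Gp9 and Gp1bb, and 1 for Pf4, and 64.1% of 32851 promoters in the table held it in the same window. A GATA word was found only upstream of Gp1bb, 17 to 22 bases before the start, and 26.5% of promoters held one. These matches describe the letters and do not show binding.

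Of 14 transcription factor genes of the lineage, 5 rose, 2 fell and 7 did not pass, with a median log2 fold change of 0.19. These shares (35.7% higher and 14.3% lower) stand beside 25.5% and 25.0% over all genes tested. Gata1, required for megakaryocyte and erythroid maturation, went from 18.6 ± 1.73 to 26.3 ± 1.72 CPM (log2 fold change 0.50, SE 0.0900, edgeR adjusted p = 0.00401). Erg, an ETS factor of HSCs and megakaryocytes, rose as well (0.85, SE 0.0783, edgeR adjusted p = 0.000259), as did Gfi1b (0.44, adjusted p = 0.000820) and Runx1 (0.17, adjusted p = 0.00388), all from edgeR. The ETS factor Fli1 fell by 0.10 on the log2 scale (SE 0.0257, edgeR adjusted p = 0.0176). Zfpm1, the other factor that fell, dropped by more, from 3.59 ± 0.654 to 2.30 ± 0.257 CPM (-0.64, SE 0.176, edgeR adjusted p = 0.0216). It had few counts, 57 to 86 in Ctrl and 43 to 52 in l-FA, and was named after its values were seen. Gata2 (0.27, adjusted p = 0.179) and Nfe2 (1.13, adjusted p = 0.0563) did not pass in edgeR. Nfe2, which encodes the large subunit of NF-E2, a driver of platelet release, had 2270, 2847 and 2132 counts in Ctrl and 7280, 7266 and 2366 in l-FA, so l-FA library 3 lay at the Ctrl level.

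**Figure D4:**
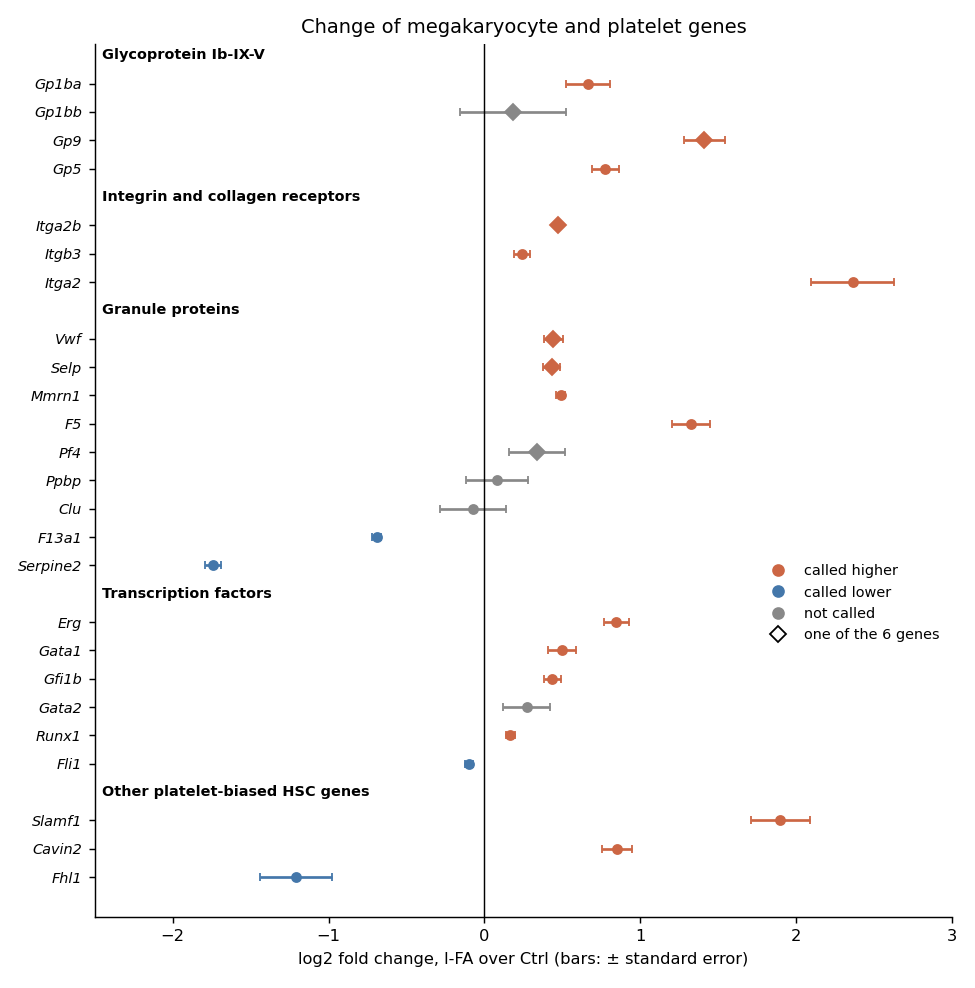
Log2 fold change of l-FA over Ctrl with its standard error for the 6 genes (diamonds) and for other named genes of the lineage (circles), coloured by whether edgeR called them higher, lower or neither at an adjusted p under 0.05. Gp9 had the highest value of the 4 glycoprotein Ib-IX-V genes at 1.41, and Serpine2 had the lowest value shown at -1.74.

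Across the lineage, 65 megakaryocyte and platelet genes other than the 6 were listed by role, and 64 were tested. Of these, 31 were higher in l-FA, 9 were lower and 24 did not pass (48.4% higher and 14.1% lower, against 25.5% and 25.0% of all genes tested), and their median log2 fold change was 0.21. The lists were chosen with earlier results of these data known, so these shares describe the listed genes only. The counts by role follow, beside the same background, and some genes stand in several roles. Of 9 further adhesion receptor genes, 8 rose and none fell. Itga2, the α2 chain of the collagen receptor, went from 1.41 ± 0.593 to 7.25 ± 0.753 CPM (log2 fold change 2.36, SE 0.265, edgeR adjusted p = 0.000548) and was named after its values were seen.

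Of 11 further granule genes, 6 rose and 2 fell. F5, which encodes coagulation factor V, rose from 3.79 ± 0.266 to 9.51 ± 1.10 CPM (log2 fold change 1.32, SE 0.122, edgeR adjusted p = 0.000253), and Mmrn1, a granule protein that binds factor V, had a log2 fold change of 0.49 (adjusted p = 4.48e-05). The protease inhibitor gene Serpine2 fell from 47.7 ± 0.889 to 14.3 ± 0.321 CPM (log2 fold change -1.74, SE 0.0489, edgeR adjusted p = 3.95e-06). F13a1, the A chain of factor XIII, which monocytes also express, fell by 0.69 on the log2 scale (edgeR adjusted p = 1.67e-05). Of 11 activation receptor and signaling genes, 4 rose and 3 fell, with Tbxa2r, the thromboxane receptor, at a log2 fold change of 0.46 and Rasgrp2, an exchange factor for Rap1, at -0.30. Of 7 cytoskeleton genes tested, 2 rose and 1 fell, with Flna at 0.15 and Tuba8 at -0.71.

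Among 8 further genes associated with platelet-biased HSCs, 5 rose, 1 fell and 2 did not pass. These shares (62.5% higher and 12.5% lower) stand beside 25.5% and 25.0% over all genes tested. Itgb3 and Cd9 of this list were already counted among the receptors, and Mmrn1 and Clu among the granule genes. Slamf1 had a log2 fold change of 1.90 (SE 0.189, edgeR adjusted p = 0.000338) and Cavin2, a caveola coat protein gene, 0.85 (adjusted p = 0.00055). Fhl1, a LIM domain protein gene, had -1.21 (SE 0.231, edgeR adjusted p = 0.00501). Clu, which encodes clusterin, had 5.83 ± 1.38 CPM in Ctrl and 5.53 ± 0.891 CPM in l-FA, and did not pass (log2 fold change -0.08, adjusted p = 0.789 from edgeR).

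**Figure D5:**
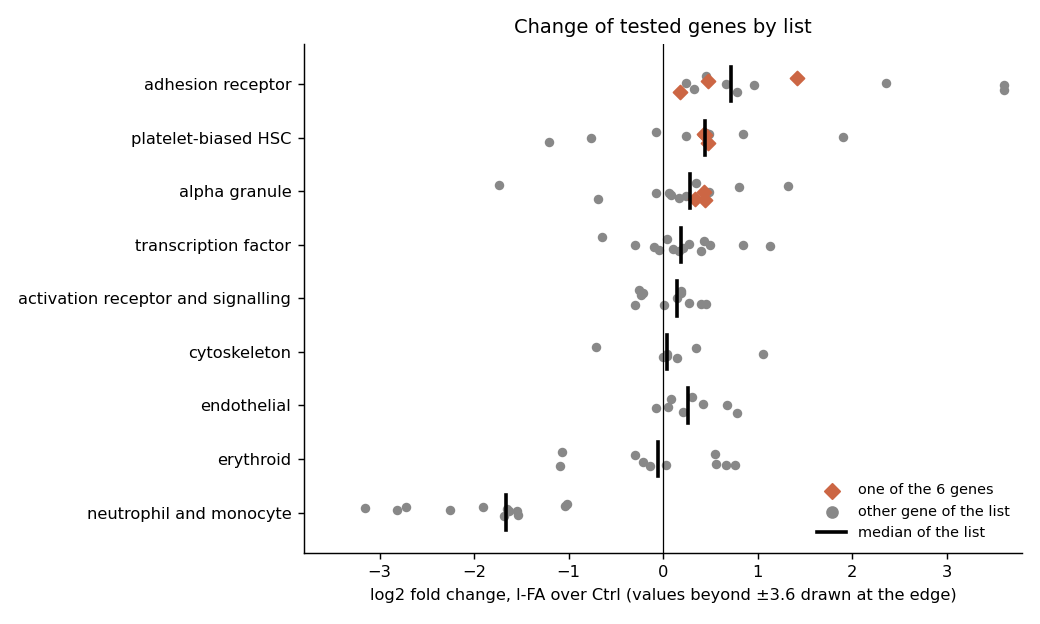
Log2 fold change of l-FA over Ctrl for the tested genes of 6 megakaryocyte and platelet lists and 3 lists of other cell types, with 1 point per gene, diamonds for the 6 genes and a bar at the median of each list. The median was 0.19 for transcription factors and -1.66 for neutrophil and monocyte genes, and 2 receptor genes beyond the axis are drawn at its edge.

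Vwf and Selp are also genes of endothelial cells. Of 10 other endothelial genes, 8 were tested, of which 2 (25.0%) rose and none fell. Over all genes tested, 25.5% were higher and 25.0% lower, so the share that rose was near that background. The median log2 fold change of the 8 was nevertheless 0.26, against 0.0035 for all genes tested. The list summed to between 257 and 260.1 CPM in Ctrl and between 303 and 305 CPM in l-FA. Most of this came from Tie1 and Egfl7, at 123 ± 1.97 and 112 ± 4.29 CPM in Ctrl, which HSCs express as well. Egfl7 rose (log2 fold change 0.42, edgeR adjusted p = 0.000188), as did Kdr, a VEGF receptor gene, from 1.92 ± 0.219 to 3.29 ± 0.627 CPM (log2 fold change 0.78, edgeR adjusted p = 0.0141). Emcn had 222 to 255 counts in Ctrl and 268 to 317 in l-FA, so the groups were apart, but it did not pass (edgeR adjusted p = 0.0744). Plvap had 91 to 117 counts in Ctrl and 111 to 122 in l-FA, and did not pass either (edgeR adjusted p = 0.638). Cdh5 and Ptprb were not tested for low counts. Cdh5 had 3, 3 and 3 counts in Ctrl and 6, 5 and 9 in l-FA, and Ptprb 6, 6 and 5 in Ctrl and 6, 5 and 7 in l-FA. Of genes used late in platelet formation, Tubb1, the platelet β1-tubulin, had 8, 12 and 9 counts in Ctrl and 23, 13 and 28 in l-FA (log2 fold change 1.05, SE 0.354, edgeR adjusted p = 0.0456). Tubb1 was named after its values were seen. Of other listed platelet genes with few counts, Mpig6b rose (log2 fold change 0.96, edgeR adjusted p = 0.0325). Treml1 (0.32, edgeR adjusted p = 0.174) and P2ry12 (0.19, edgeR adjusted p = 0.652) did not pass. The part of endothelial or platelet RNA in the levels of the 6 genes was not tested.

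The profiles of the genes over the 6 libraries were compared as the root-mean-square difference of their centred log2 CPM. Vwf, Itga2b and Selp lay within 0.0482 to 0.0491 of each other, and Pf4 lay between 0.197 and 0.240 from these 3. Gp9 was between 0.498 and 0.770 from the other 5 genes. The nearest of 11427 genes with a mean of at least 100 counts were Nfatc1 (0.0200) and Kdm3b (0.0260) for Vwf, Adprs (0.0112) and Smad5 (0.0197) for Itga2b, and Sirt3 (0.0244) and Rmi1 (0.0249) for Selp. This profile was common, since 953 genes lay within 0.1 of Vwf, 992 of Itga2b and 894 of Selp. For Pf4 the nearest were Rps25-ps1 (0.0768) and H2ac4 (0.0773), with 7 genes within 0.1. No gene lay within 0.1 of Gp9, nearest to Sec31b (0.106) and Pgap4 (0.107), or of Gp1bb, for which LTO1 (0.163) was near.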

How the data were processed

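RNA of sorted HSCs was amplified as cDNA with a SMART-Seq HT kit, which does not mark strand, and sequenced. The deposited table holds unnormalized counts of each gene as whole numbers, beside FPKM that the authors derived from them. The submitters' processing notes name HISAT2, SAMtools 1.3.1, StringTie and edgeR, and the build GRCm39. The role of each tool and the gene annotation are not given in the sources used here. FPKM were used for levels per length only. The members and all gene lists were chosen with earlier results of these data known.

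The test was edgeR 4.0.16 (R 4.3.3, filterByExpr, TMM, glmQLFit, glmQLFTest) on counts of the 3 Ctrl and 3 l-FA libraries, with Benjamini-Hochberg adjustment over 16520 genes. The standard error is the log2 fold change divided by the square root of F, and 95% intervals use edgeR's moderated degrees of freedom. Ratios of 2 genes were tested with two-sided exact permutation tests. On simulated counts for 16520 genes with 200 genes changed 2-fold, 132 were called (117 of 135 with a mean of at least 100 counts), as were 14 unchanged genes. In the data 50.5% of genes were called, and Vwf, Selp and Itga2b changed by less than 2-fold. The simulation therefore does not show how often changes of their size are called, or the false calls where so many genes change. Counting error covers only part of the error of amplified cDNA without molecular identifiers.

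Named genes are the 6 members, partners of the members, lineage regulators fixed by name, and in each list the 2 largest called rises and falls with a mean of at least 100 counts, and the 2 genes nearest in profile to each member. A few genes that the rule names, and 1 list, are not reported here. Other genes were named after their values were seen. A gene with at most 3 counts in every library of a group was set at that floor. Promoters came from RefSeq (GRCm38.p6), where 5 of the 6 genes had an entry. Alternatives were DESeq2 1.42.0, other scaling factors and filters, the replicate number as a block, single libraries left out, glmTreat and overlapping genes summed. Same-numbered libraries did not deviate together.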

Additional observations from a re-analysis of the deposited data

How the results depend on the processing

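Itga2b, Vwf, Selp and Gp9 were called higher under all 14 alternatives, and the log2 fold change stayed between 0.42 and 0.49 for Vwf, 0.46 and 0.49 for Itga2b, 0.38 and 0.46 for Selp and 1.299 and 1.5 for Gp9. With 1 library left out, Pf4 ranged from 0.20 to 0.54 and passed only without Ctrl library 3, and Gp1bb ranged from -0.13 to 0.49, below 0 only without Ctrl library 1, and passed in none. The log2 difference of the Vwf to Selp ratio ranged from -0.0248 to 0.0445, and was below 0 without Ctrl library 3, l-FA library 2 or l-FA library 3. A test against a 1.2-fold change called 4516 genes against 8336, and 20 of the other megakaryocyte and platelet genes against 40, because it asks for a larger change. All other counts stayed within 1.5 times, and upper-quartile scaling moved the median of all genes to 0.0275. With the replicate number as a block 7405 genes were called, 4 of the 6 genes among them, and no call of the 6 changed. Same-numbered libraries deviated from their group means with correlations of 0.00393, -0.0106 and -0.0783, and the labels do not pair them. The difference of the Gp1bb to Gp9 ratio ranged from -1.58 to -0.72, of Gp1ba to Gp1bb from 0.14 to 0.79 and of Pf4 to Ppbp from 0.04 to 0.63. The 95% interval of Gp1bb, -0.63 to 0.99, includes a change of the size seen in Vwf, beside a chi-square of 18.6 across its Ctrl libraries, and its SE of 0.339 became 0.174 with overlapping genes summed.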

Other observations

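The platelet receptor genes Gp6 and Clec1b were detected in l-FA only. Gp6, the signaling collagen receptor, had no counts in the Ctrl libraries and 16, 25 and 25 in the l-FA libraries, at least 6.97-fold higher against a floor of 3 counts per library. Clec1b, which encodes the podoplanin receptor CLEC-2, had none in Ctrl and 15, 12 and 13 in l-FA, at least 4.20-fold higher. Both were named after their values were seen, and both stayed at few counts in l-FA.

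Lists of other marrow cells were counted beside the background of all genes tested, of which 25.5% were higher and 25.0% lower in edgeR's quasi-likelihood test at an adjusted p under 0.05. Of 10 erythroid genes tested, 3 were higher and 2 lower, shares near that background. The 12 listed summed to between 188 and 199 CPM in Ctrl and between 138 and 142 CPM in l-FA, and the transferrin receptor gene Tfrc alone went from 111 ± 3.01 to 52.7 ± 2.47 CPM. Of 8 mast cell and basophil genes tested, 5 (62.5%) were higher and 1 (12.5%) was lower. The 9 listed summed to between 301.5 and 312 CPM in Ctrl and between 244 and 252 CPM in l-FA, although most of those tested were higher, and the lower gene was the histidine decarboxylase gene Hdc, which went from 148.5 ± 4.37 to 25.1 ± 0.383 CPM. The mast cell protease gene Tpsb2 had no counts in Ctrl and 48, 49 and 58 in l-FA, at least 16.3-fold higher. Of 9 B and T cell genes 4 were tested and 2 were higher, Cd4 and Trbc2. Among those with too few counts to test, Ms4a1 had 8, 13 and 7 counts in Ctrl and Cd8a 6, 6 and 10, and both had none in l-FA. Cd3d had 9, 7 and 4 in Ctrl and 2, 0 and 0 in l-FA. Cd3e went the other way, with 0, 0 and 4 counts in Ctrl and 6, 3 and 10 in l-FA. Pax5 had 0, 1 and 0 counts in Ctrl and none in l-FA. Of 11 HSC genes 63.6% were higher and 9.09%, the gene Hlf, lower (median log2 fold change 0.30). Of 8 immediate early genes 75.0% were higher and none lower (median 0.64).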
